A study of Mus musculus with 5 samples.

Results

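The collagen genes of the mouse genome were taken as the protein-coding genes of the GENCODE M21 annotation (mm10) whose symbol is Col, a number, a and a number, such as Col1a1. There were 44 of them among 21951 protein-coding genes. Each gene was scored in 5 CUT&RUN-seq libraries of mouse muscle stem cells (MuSCs) for a peak within 3 kb of any of its annotated transcription start sites (TSSs) or inside its gene body. CUT&RUN-seq maps a protein on chromatin by releasing the DNA next to a bound antibody. In 3 libraries from young mice and 1 library from aged mice the antibody was raised against JunB, and 1 library of unstated age was made with an antibody to H3K27ac, the acetylated histone that marks promoters and enhancers in use. The labels gave no sex, genotype, strain or age in months for these libraries. The sample labels, which were followed here, name young and aged mice, while the text of the series speaks of mice given DMSO or MVC.

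Collagens are triple-helical proteins of the extracellular matrix. Fibrillar collagens give tendon and muscle connective tissue its tensile strength, type IV collagens form the sheet of the basement membrane that covers each muscle fiber and its MuSCs, and type VI collagen forms beaded filaments between them. JunB is a subunit of the AP-1 transcription factor, which binds the short sequence TGACTCA, read TGAGTCA on the other strand.

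A peak list holds no read counts, so the depth of the libraries is unknown and the absence of a peak says only that none was called. The JunB lists held 3863 to 14123 peaks, the aged list being the longest, and the H3K27ac list held 39865. Their thresholds differed: the aged list and that of young replicate 1 reached down to a −log10 p of 3.01, and those of young replicates 2 and 3 to 5.33 and 5.22. With 1 aged library against 3 young ones, the smallest p an exact permutation test can give is 0.25, a difference between ages had no aged replicate to check it, and age, list length and threshold cannot be told apart. A peak sheet published with the study carries the peaks of the library labelled aged under a young heading, and its aged heading matches young replicate 1 in part. The text of the study, in contrast, assigns to aged MuSCs a peak total equal to the length of the list labelled aged, as the sample label does. The sample labels were followed. The MuSC label was checked against marker genes by the H3K27ac library alone. An H3K27ac peak lay within 3 kb of a TSS for 7 of 10 MuSC markers, all but Pax7, Myf5 and Calcr. The same held for 3 of 8 fibro-adipogenic progenitor markers, 1 of 5 tenocyte, 1 of 6 macrophage and 2 of 5 endothelial markers. It held for 2 of 5 smooth muscle and pericyte and 2 of 3 Schwann cell markers, beside 49.8% of all protein-coding genes. The part of other cells in the collagen peaks was not tested.

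The JunB regions that carried the strongest collagen peaks were intronic. Below are the mm10 plus-strand stretches that run from the summit of the region's strongest peak to the nearest copy of the AP-1 motif, with 10 bases more at each end and the motif in capitals. The first 5 are the strongest of the regions found in all 4 JunB libraries, shown because the 4 lists returned to the same place, and the last is the region of the 3-library group whose motif lay closest to a summit.
Col27a1 intron 41 chr4:63316209-63316345 (+): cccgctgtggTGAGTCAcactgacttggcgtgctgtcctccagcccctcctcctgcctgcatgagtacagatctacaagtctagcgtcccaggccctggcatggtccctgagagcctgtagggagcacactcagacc
Col5a3 intron 1 chr9:20812733-20813019 (+): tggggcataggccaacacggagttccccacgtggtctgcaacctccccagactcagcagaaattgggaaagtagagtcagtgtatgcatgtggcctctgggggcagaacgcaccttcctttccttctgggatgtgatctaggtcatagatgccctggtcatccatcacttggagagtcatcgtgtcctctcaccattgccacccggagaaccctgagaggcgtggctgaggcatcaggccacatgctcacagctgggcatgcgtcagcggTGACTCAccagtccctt
Col15a1 intron 28 chr4:47293831-47294061 (+): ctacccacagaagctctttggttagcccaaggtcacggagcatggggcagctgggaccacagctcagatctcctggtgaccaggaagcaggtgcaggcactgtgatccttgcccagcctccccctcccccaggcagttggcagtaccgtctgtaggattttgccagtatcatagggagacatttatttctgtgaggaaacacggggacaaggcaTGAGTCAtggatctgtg
Col5a1 intron 1 chr2:27889047-27889124 (+): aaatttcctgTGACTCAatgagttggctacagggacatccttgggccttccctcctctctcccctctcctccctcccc
Col4a1 intron 1 chr8:11273708-11273789 (+): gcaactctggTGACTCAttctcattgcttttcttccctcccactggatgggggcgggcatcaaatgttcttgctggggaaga
Col4a1 intron 2 chr8:11262194-11262231 (+): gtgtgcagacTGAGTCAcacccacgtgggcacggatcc
The motif centre was 113 bp from the summit in Col27a1, 263 bp in Col5a3, 207 bp in Col15a1, 54 bp in Col5a1, 58 bp in Col4a1 intron 1 and 14 bp in Col4a1 intron 2. None of these stretches held annotated UTR bases.

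JunB was called at 14, 10 and 10 collagen genes in young replicates 1, 2 and 3, compared with 20 in the aged library. The shares were 31.8% (95% Clopper-Pearson interval 18.6 to 47.6), 22.7% (11.5 to 37.8), 22.7% (11.5 to 37.8) and 45.5% (30.4 to 61.2), and the young mean was 25.8% ± 5.25 (SD, n = 3). Such intervals cover counting error over the genes only. Among all protein-coding genes the corresponding shares were 17.6%, 11.9%, 9.58% and 30.9%. H3K27ac was called at 30 collagen genes, 68.2% (52.4 to 81.4), beside 56% of all protein-coding genes. The aged share was above all 3 young shares for the collagens and for all protein-coding genes alike. Among the 2000 strongest peaks of each list, JunB was called at 8, 6 and 9 collagens in young replicates 1, 2 and 3 and at 7 in the aged one, so the aged count lay among the young ones. The shares of all protein-coding genes were then 5.07%, 5.16%, 5.25% and 6.33%, not adjusted for gene length.

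The collagens are long genes, and a long gene body has more room for a peak. They had a median length of 114388 bp, from 7105 to 468377 bp, against 17403 bp over all protein-coding genes. When the background was standardised to the lengths of the collagens in 10 length bins, it rose to 35%, 23.3% and 19% in young replicates 1, 2 and 3, to 49% for the aged library and to 74% for H3K27ac. The collagen share then differed from the background by −3.16, −0.56, 3.68, −3.57 and −5.87 percentage points in that order. The interval of each collagen share contained the standardised background. Per megabase of gene and TSS window, collagens carried 4.56, 3.83, 2.37 and 7.84 JunB peaks in young replicates 1, 2, 3 and the aged library, beside 4.72, 2.79, 2.19 and 8.04 over all protein-coding genes.

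**Figure D1:**
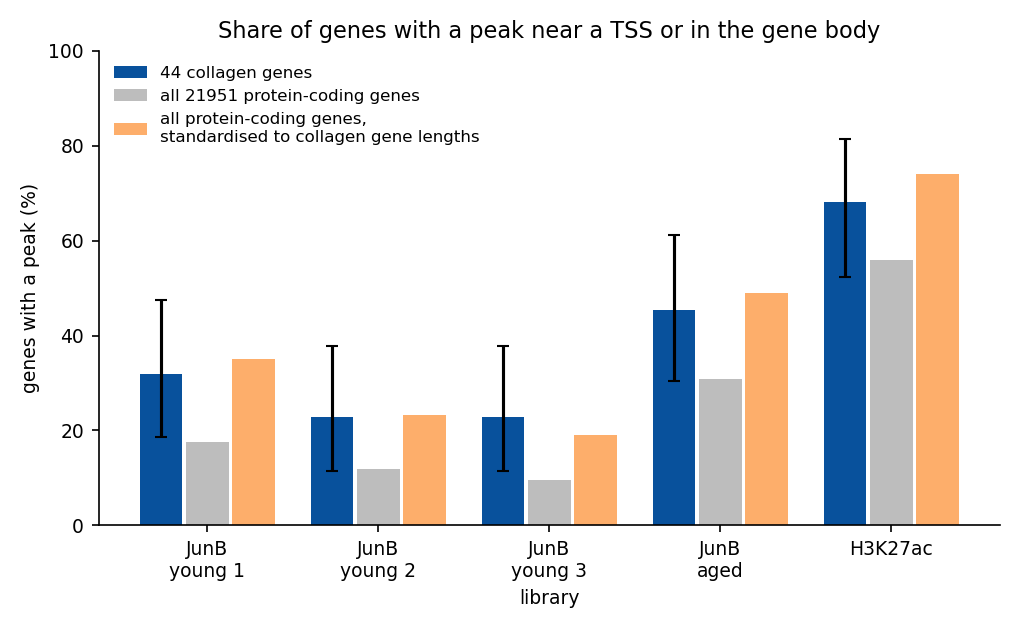
Percent of genes with a peak within 3 kb of a TSS or in the gene body, by library, for the 44 collagen genes (blue, with 95% Clopper-Pearson intervals), for all protein-coding genes (grey) and for all protein-coding genes standardised to collagen gene lengths (orange). The blue bars exceed the grey ones in every library, while the orange bars lie inside every interval.

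Within 3 kb of a TSS, JunB was called at 6, 5 and 5 collagen genes of the young lists, or 13.6%, 11.4% and 11.4%, and at 10 of the aged list, or 22.7%. The shares over all protein-coding genes were 11.1%, 7.79%, 5.95% and 23.9%, so that the aged collagen share minus its background was −1.19 points. H3K27ac lay near a TSS of 23 collagen genes, 52.3%, beside 49.8% of all. Standardised to collagen lengths, the TSS background was 14.3%, 10.1% and 7.32% in young replicates 1, 2 and 3. It was 27.8% in the aged library and 58.6% for H3K27ac. The collagen share near a TSS minus this background was −0.69, 1.25, 4.04, −5.11 and −6.33 points in that order. Gene bodies supplied the rest: JunB lay in the body alone at 8, 5 and 5 collagens of the young lists and 10 of the aged list, 18.2%, 11.4%, 11.4% and 22.7%, compared with 6.49%, 4.08%, 3.64% and 6.94% of all protein-coding genes. Standardised to collagen lengths, the body-only background was 20.7%, 13.2%, 11.7% and 21.2%, and the collagen share minus it was −2.48, −1.81, −0.36 and 1.54 points.

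JunB was called in all 4 libraries at 9 collagen genes, namely Col4a1, Col4a2, Col5a1, Col5a3, Col8a1, Col15a1, Col16a1, Col18a1 and Col27a1. This was 20.5% of the collagens, beside 7.33% of all protein-coding genes and 15.5% once the background was standardised to collagen lengths, a share that would give 6.81 of 44 genes. Another 3 genes, Col6a3, Col12a1 and Col19a1, shared it between the aged library and 1 or 2 young ones. JunB peaks of the aged library without any young one were found at 8 collagens, 18.2% against 14.7% of all protein-coding genes and 17.6% at collagen lengths. Peaks of at least 1 young library without the aged one were found at 2, 4.55% against 3.46%. The other 22 collagens, 50%, had no JunB peak, compared with 65.7% of all protein-coding genes and 44.4% at collagen lengths, so that the direction of the difference turned with the background.

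**Figure D2:**
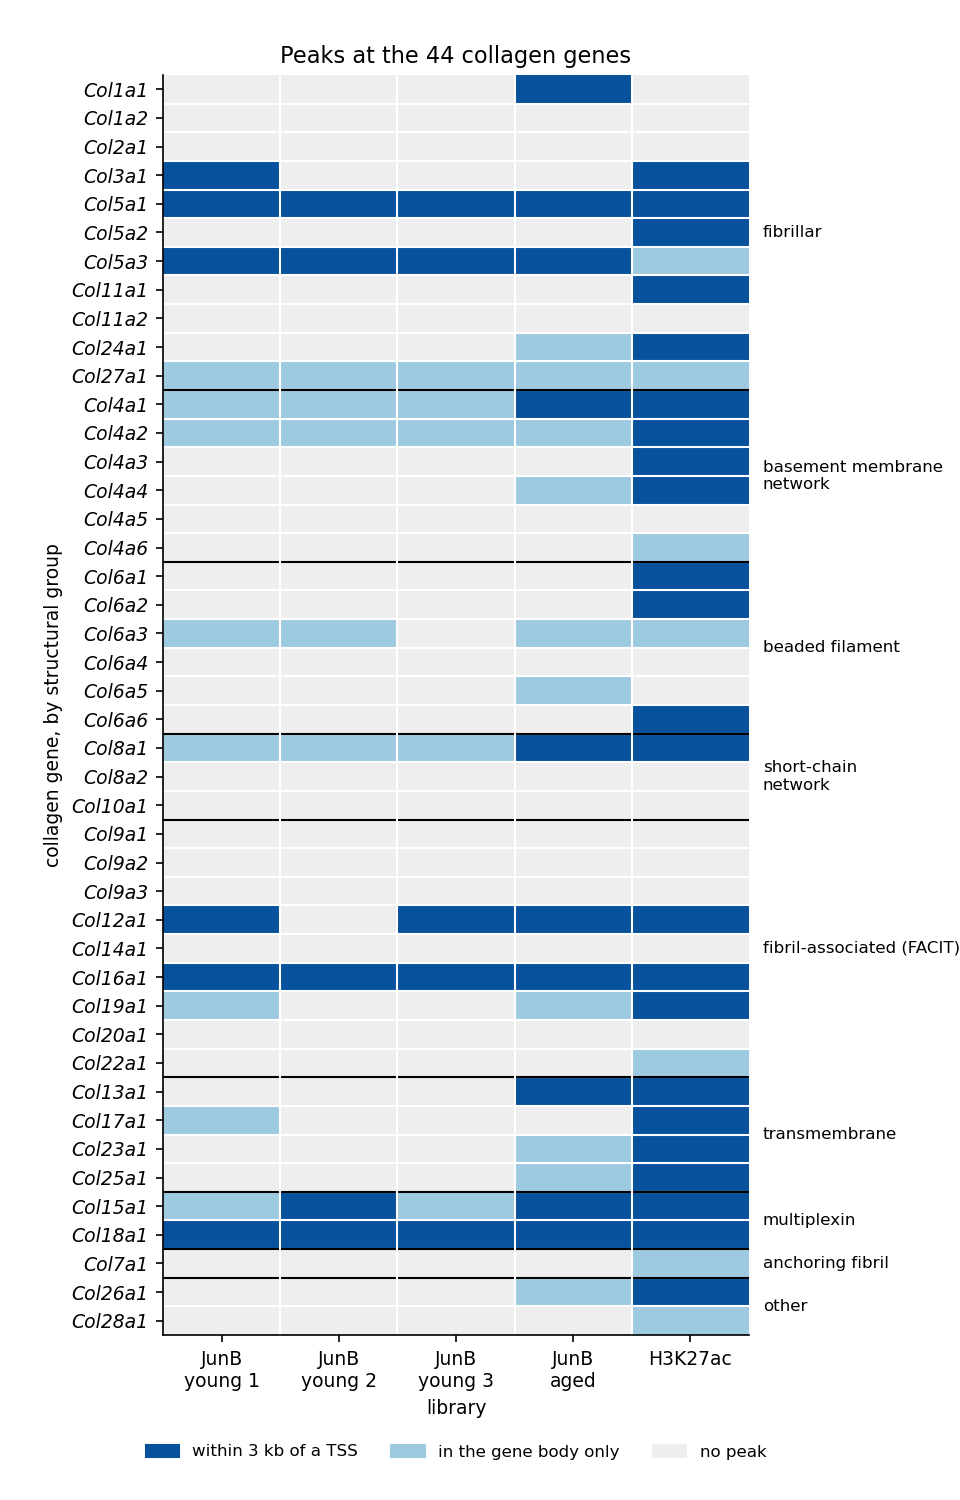
Each row is 1 of the 44 collagen genes, ordered by structural group, and each column is 1 library. Dark blue marks a peak within 3 kb of a TSS, light blue a peak in the gene body only and grey no peak; 9 genes are blue in all 4 JunB columns and 22 are grey in all of them.

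A finer question is whether the libraries met at the same place. Overlapping JunB peaks of the 4 libraries were merged, which gave 56 regions at the collagens, none of which reached another protein-coding gene. Of these, 10 held a peak of every library, 17.9%, compared with 14.4% of the 11004 regions at all protein-coding genes. A single library supplied 35, or 62.5% against 62.6%, and the aged library alone supplied 26, or 46.4% against 47.1%. The 10 shared regions belonged to 8 genes, 18.2% of the collagens beside 6.82% of all protein-coding genes and 13.9% at collagen lengths. The gene lost by this stricter reading was Col16a1.

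Among the 11 fibrillar collagens, which build the banded fibers of connective tissue, JunB was called at 4, 3 and 3 genes of the young lists, at 5 of the aged list and at 3 in all 4. Over all protein-coding genes the shares were 17.6%, 11.9%, 9.58%, 30.9% and 7.33% in that order. At the lengths of all 44 collagens they were 35%, 23.3%, 19%, 49% and 15.5%. The fibrillar genes had a median length of 45018 bp, and no background at their own lengths was computed. Col27a1, a fibrillar chain best known from cartilage, held the strongest collagen site in 3 of the 4 lists. Its region in intron 41 (chr4:63316039-63316530) had a fold enrichment, the height of the peak summit over the local background as MACS2 computes it, of 17.6, 16.2 and 17.6 in young replicates 1, 2 and 3 and of 12.6 in the aged one. The aged value was below every young value, and no H3K27ac peak overlapped the site. Its place in the ranking by −log10 p was 262 of 9534, 266 of 4884, 194 of 3863 and 174 of 14123 peaks. A weaker Col27a1 region in intron 2 was found in young replicates 1 and 2 and once more in the aged list, with fold enrichments of 9.26, 7.56 and 5.94, and overlapped H3K27ac.

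Col5a1 and Col5a3 encode chains of type V collagen, which sits inside type I fibrils and limits their diameter, and which is known as a component of the MuSC niche. Col5a3 had a region in intron 1 (chr9:20812532-20813194), 2324 bp downstream of the TSS, with fold enrichments of 11.5, 15.3, 15.2 and 10.6 in young replicates 1, 2, 3 and the aged library. It overlapped no H3K27ac peak, whereas a weaker Col5a3 region in intron 6 did. Col5a1 had a region in intron 1 (chr2:27888791-27889336), 2689 bp downstream of the TSS, with fold enrichments of 10.5, 8.98, 10.4 and 8.46, within an H3K27ac peak. The aged value was the lowest of the 4 at both genes. Col5a2, the partner chain that completes the common form of type V collagen, had no JunB peak in any library although it carried 7 H3K27ac peaks covering 6.78 kb.

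The most abundant interstitial collagens had few JunB peaks. Col1a1, whose product forms type I collagen together with that of Col1a2, had a single aged peak in intron 1 with a fold enrichment of 5.22 and no H3K27ac. Col1a2 had no peak of either kind. Col3a1, a fibrillar collagen of distensible tissue, had a JunB peak in young replicate 1 alone, with a fold enrichment of 3.34 at 2708 bp from a TSS, and 4 H3K27ac peaks with fold enrichments from 1.78 to 2.06. Col24a1, a minor fibrillar chain, had aged peaks in intron 27 and exon 39 with fold enrichments of 3.63 and 4.93. Of the cartilage collagens Col2a1, Col11a1 and Col11a2, none had JunB and Col11a1 alone had H3K27ac.

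The 6 basement membrane genes were split. Col4a1 and Col4a2, the chains of the widespread type IV network, had JunB in all 4 libraries. Over all protein-coding genes 7.33% had it in all 4, and 15.5% at the lengths of the collagens. Col4a4 had a single aged peak with a fold enrichment of 5.11, and Col4a3, Col4a5 and Col4a6 had no JunB peak. Col4a1 and Col4a2 lie head to head with 5′ ends 21 bp apart on chromosome 8. Their common promoter held an H3K27ac peak with a fold enrichment of 3.12 and no JunB peak in any library, and the nearest JunB summit was an aged one inside Col4a1, 3403 bp from its 5′ end.

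The JunB peaks on both sides lay in introns. An aged peak in Col4a1 intron 1, with a fold enrichment of 4.70, had its summit 138 bp upstream of an internal TSS. In Col4a1 a region in intron 2 (chr8:11249583-11250062) had fold enrichments of 11.7, 8.56, 8.85 and 9.95 in young replicates 1, 2, 3 and the aged library, so the aged value lay among the young ones. A region in intron 1 (chr8:11273377-11274039) had 11.9, 10.4, 9.81 and 7.13, with the aged value below all young values. In Col4a2, intron 4 held both shared regions. The values were 8.87, 5.59, 7.58 and 7.26 at chr8:11382456-11383027, and 7.74, 7.08, 6.25 and 6.58 at chr8:11392464-11393442, the aged value lying among the young ones at each. Of these 4 shared regions, all but the Col4a1 intron 1 region overlapped H3K27ac. The region of the shortest printed sequence, Col4a1 intron 2 at chr8:11261895-11262647, was found in young replicates 1 and 2 and the aged list with fold enrichments of 5.85, 5.18 and 5.75, and it overlapped H3K27ac as well.

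**Figure D3:**
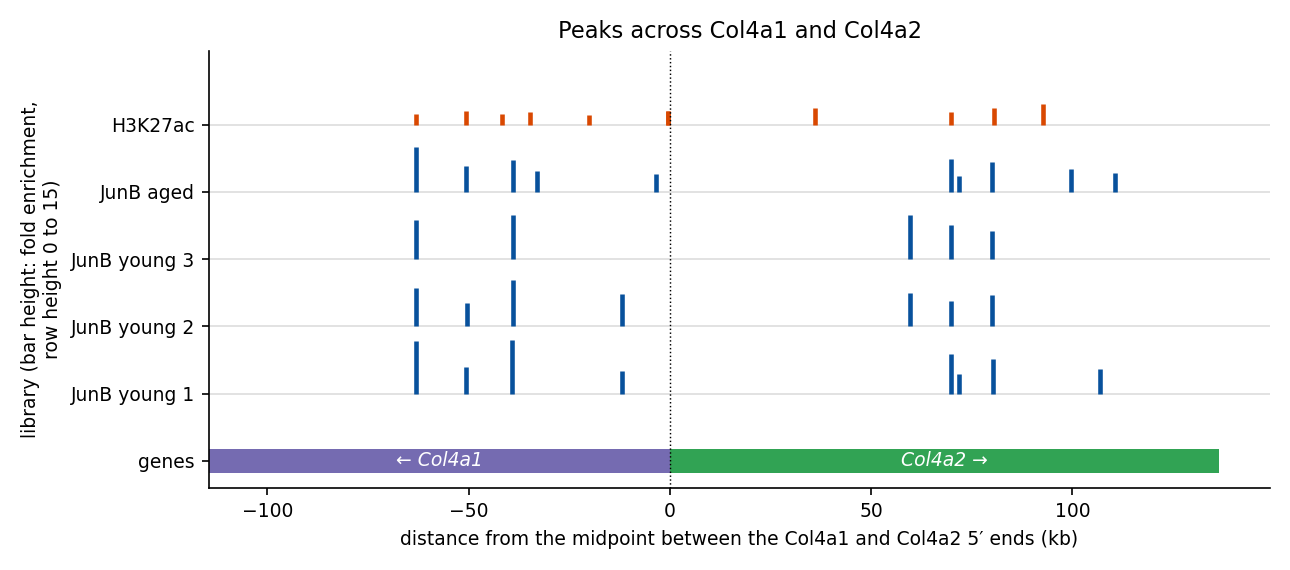
Peaks across the Col4a1 and Col4a2 genes, drawn at their distance in kb from the midpoint between both 5′ ends, 1 row per library; the height of a bar is its fold enrichment, with 15 for a full row. JunB bars of all 4 libraries line up at 4 intronic places, and at the midpoint only H3K27ac has a bar.

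The multiplexins Col15a1 and Col18a1, basement membrane-associated proteins whose C-terminal pieces are known as restin and endostatin, both had JunB in all 4 libraries. The share was 7.33% over all protein-coding genes and 15.5% at the lengths of the collagens. Col15a1 had a region in intron 28 (chr4:47293625-47294329), with fold enrichments of 16.9, 10.6, 11 and 8.57 in young replicates 1, 2, 3 and the aged library. The value of young replicate 1 stood apart from the other three, and the aged value was the lowest. This region lay in an H3K27ac peak of 1844 bp. Col18a1 had a region in intron 2 (chr10:77089540-77089988), 321 bp upstream of an internal TSS, with fold enrichments of 10, 7.77, 8.99 and 9.13, the aged value lying among the young ones. It coincided with the strongest H3K27ac peak of any collagen gene, which had a fold enrichment of 7.18 and ranked 309 of 39865. It was the only one of the 10 shared regions within 1 kb of a TSS.

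Col8a1, a short-chain collagen of vessel walls and the eye, had a region in intron 2 (chr16:57671806-57672273) with fold enrichments of 8.31, 9.84, 11 and 6.18 in young replicates 1, 2, 3 and the aged library, inside an H3K27ac peak. The aged value was below every young value. The related genes Col8a2 and Col10a1 had no peak of either kind.

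Among the 9 fibril-associated (FACIT) collagens, which decorate the surface of fibrils, Col16a1 was called in every JunB library, but at separate places. The 3 young libraries shared a region in intron 42 (chr4:130074983-130075491) with fold enrichments of 8.69, 7.82 and 8.73, where the aged list had no peak. The aged peaks lay in introns 2 and 38 with fold enrichments of 5.71 and 4.67. Col12a1, abundant in muscle and tendon matrix, gave a similar picture: a region in intron 1 was found in young replicates 1 and 3 at 4.57 and 7.72, and the aged peak was in intron 58 at 4.38. Col9a1, Col9a2, Col9a3, Col14a1 and Col20a1 had neither JunB nor H3K27ac. Col22a1, found at tissue junctions such as that of muscle and tendon, had H3K27ac without JunB. Col19a1, a minor basement membrane-zone collagen, carried 12 H3K27ac peaks, the largest number at any collagen, and JunB peaks of low fold enrichment, 3.63 and 4.67 in the aged list and 3.32 in that of young replicate 1.

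Type VI collagen, secreted into the niche around MuSCs, is built mainly from the products of Col6a1, Col6a2 and Col6a3. Col6a3 had a JunB region in intron 1 with fold enrichments of 6.29 and 6.42 for young replicates 1 and 2 and 6.13 for the aged list, and no peak in young replicate 3. It lay in the gene's H3K27ac peak, with a fold enrichment of 5.96. Col6a1 and Col6a2 had H3K27ac near a TSS, with summits at −190 and 218 bp from it (negative values lie upstream), and no JunB. Col6a5, a chain of restricted distribution, had a single aged peak with a fold enrichment of 4.66 and no H3K27ac. Of its close relatives, Col6a6 had H3K27ac alone and Col6a4 had neither.

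The 4 transmembrane collagens all carried H3K27ac near a TSS, beside 49.8% of all protein-coding genes and 58.6% at collagen lengths. Of these, Col13a1, found at the neuromuscular junction, Col23a1 and Col25a1 had JunB only in the aged list, with fold enrichments from 3.63 to 4.67. Over all protein-coding genes 14.7% had it in the aged list and no young one, and 17.6% at the lengths of the collagens. Col17a1, a component of hemidesmosomes, had it only in young replicate 1 at 4.98. Of the last 3 genes, Col26a1 had an aged peak with a fold enrichment of 3.63, and Col7a1, the anchoring fibril collagen of skin, and Col28a1 had H3K27ac but no JunB.

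The 8 genes with JunB in the aged list and no young one (Col1a1, Col4a4, Col6a5, Col13a1, Col23a1, Col24a1, Col25a1 and Col26a1) held 11 aged peaks with a median fold enrichment of 4.44, from 3.63 to 5.22, and a median width of 248 bp. The narrowest were 245 bp. Their −log10 p ran from 4.27 to 7.84. The median fold enrichment was 4.67 over all 43 aged peaks at collagens and 5.11 over the aged peaks at all protein-coding genes. At the genes of any kind with JunB in the aged list and no young one it was 4.67, with a median width of 308 bp. The 28 aged peaks at the 9 collagens called in all 4 libraries had a median fold enrichment of 5.70, from 2.86 to 12.6. With −log10 p from 3.13 to 34.6, the weakest of them lay below every aged peak of the 8 genes. The 9 genes were picked by a peak in every list, but their single aged peaks did not have to recur in another list. When each library was limited to its 2000 strongest peaks, 0 collagens were called in the aged list without a young one, beside 2.02% of all protein-coding genes, and 5 were called in all 4, 11.4% beside 2.62%, neither adjusted for length.

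At the 10 shared regions the median fold enrichment was 11, 9.41, 10.1 and 8.51 in young replicates 1, 2, 3 and the aged library. The same medians over the 1581 shared regions at all protein-coding genes were 8.87, 9.17, 9.05 and 7.27. The aged value was below every young value at 6 of the 10 collagen regions, and at 60.4% of the regions at all protein-coding genes.

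**Figure D4:**
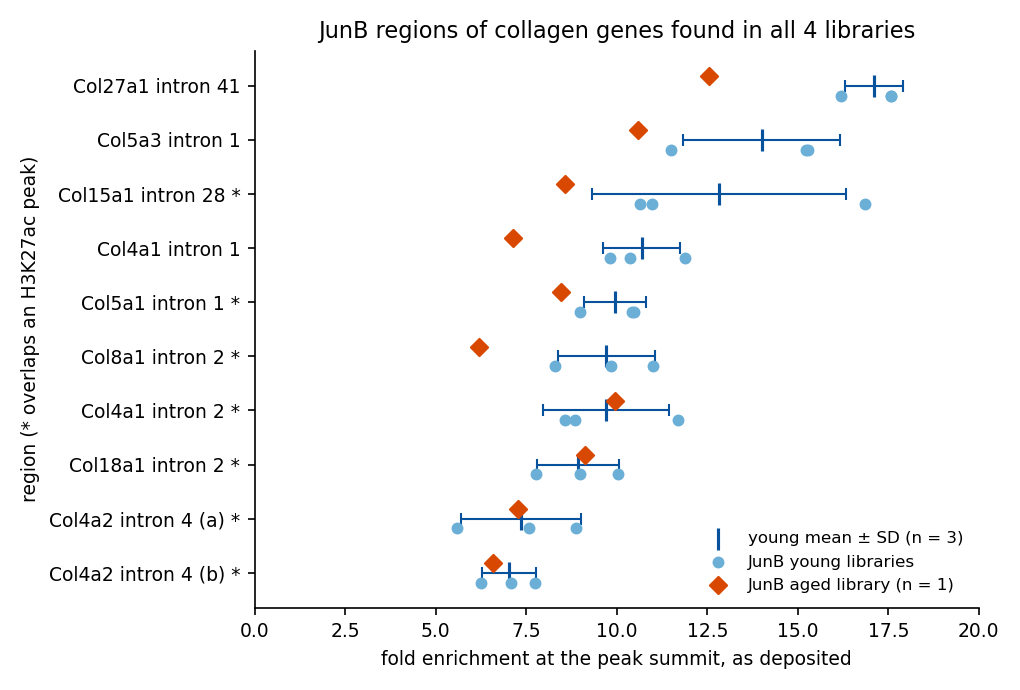
Fold enrichment at the summit for the 10 JunB regions of collagen genes found in all 4 libraries. Light blue points are the 3 young libraries, the blue bar is their mean ± SD and the orange diamond is the single aged library, which lies to the left of all young points in 6 regions; a star marks overlap with an H3K27ac peak, and a and b are the Col4a2 regions in the order of their young means.

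Of the 22 collagens with JunB in any library, 20 also carried H3K27ac, 90.9% beside 88.0% of all protein-coding genes with JunB, and the exceptions were Col1a1 and Col6a5. These 20 were 45.5% of the 44 collagens, beside 30.2% of all protein-coding genes and 49.5% at collagen lengths. In each young library all collagens with JunB, 14, 10 and 10 genes, carried H3K27ac, beside 91.1%, 95% and 94.5% of all protein-coding genes with JunB. In the aged library 18 of 20 did, 90% beside 89.3%. Of the 56 regions, however, 19 overlapped an H3K27ac peak by at least 1 bp, 33.9% (21.8 to 47.8), compared with 51.5% of regions at all protein-coding genes. That background lay above the interval. The intervals treat regions as independent, although several lay in the same gene. The share of regions near a TSS was 28.6% at the collagens, against 51.6%. Within 3 kb of a TSS the overlap was 43.8% (19.8 to 70.1) of 16 collagen regions beside 65.7% of all. Away from TSSs it was 30% (16.6 to 46.5) of 40 regions beside 36.3%. The background lay inside both collagen intervals. Of the 10 shared regions 7 overlapped H3K27ac, 70% against 71.1%. Of the 26 aged-alone regions 7 did, 26.9% (11.6 to 47.8) against 46.4%. Of the 13 young-alone regions 1 did, 7.69% (0.19 to 36) against 35.6%. The background again lay inside each of these intervals. Of the 35 regions from a single library, 8 overlapped H3K27ac, 22.9% (10.4 to 40.1). Their background of 43.0% lay above that interval.

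**Figure D5:**
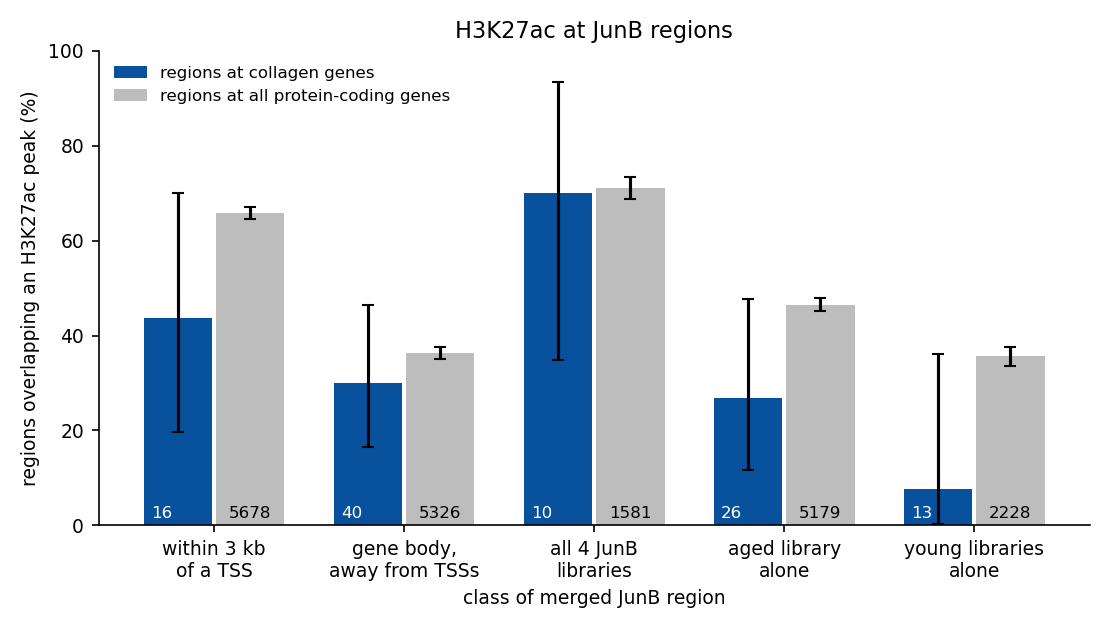
Percent of merged JunB regions that overlap an H3K27ac peak, for regions at collagen genes (blue) and at all protein-coding genes (grey), with 95% Clopper-Pearson intervals and the number of regions at the foot of each bar. The bars for regions of all 4 libraries stand at 70% and 71.1%, and the collagen bar for young-alone regions, with 1 of 13, is the lowest.

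Of the 20 collagen regions that contained TGACTCA on either strand, 8 were among the 10 shared ones, where Col18a1 and a Col4a2 region (chr8:11382456-11383027) lacked it. The share was 80% of shared regions at collagens and 56.9% at all protein-coding genes, and for windows of equal length 2000 bp further along the chromosome it was 20% and 11.2%. Over all regions it was 35.7% against 26.2%, with 7.14% and 7.10% in the shifted windows. Within 3 kb of a TSS it was 37.5% of 16 collagen regions against 20.7%. Away from TSSs, where most collagen regions lay, it was 35% of 40 regions against 32.1%. No intervals were computed for these shares of regions. The motif was seldom at the summit. In the 8 shared regions its centre was 54 to 263 bp away, with a median of 189 bp, and over all protein-coding genes the median was 148 bp. Counting peaks, the motif lay within 50 bp of the summit in 2 of 25, 2 of 21 and 1 of 13 collagen peaks in young replicates 1, 2 and 3 and in 3 of 43 in the aged library, or 8%, 9.52%, 7.69% and 6.98%, beside 5.40%, 5.24%, 6.81% and 3.47% of peaks at all protein-coding genes. The collagen intervals were wide, from 0.98 to 26.0% in young replicate 1, and each contained the background. They treat peaks as independent, although several came from the same gene. A match of letters is a description and does not show binding.

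Collagens need a set of enzymes and chaperones to fold, leave the cell and cross-link, and receptors to be sensed. Of 38 such genes, JunB was called at 12, 4 and 4 of the young lists, 31.6%, 10.5% and 10.5%, and at 23 of the aged list, 60.5%. The shares over all protein-coding genes, not adjusted for length, were 17.6%, 11.9%, 9.58% and 30.9%, so the counts of young replicates 2 and 3 were near the background. H3K27ac was called at 32, 84.2% beside 56%. JunB was found in all 4 libraries at 3 of them, 7.89% beside 7.33% of all protein-coding genes, namely P4hb, a subunit of prolyl 4-hydroxylase, Adamts2, which removes the N-terminal propeptide of fibrillar procollagens, and Ddr2, a receptor for fibrillar collagen. By function, the aged library had JunB at 8 of 15 hydroxylation genes, 3 of 5 folding and export genes, 5 of 7 propeptide cleavage genes, 3 of 5 cross-linking genes and 4 of 6 receptors. These genes were shorter than the collagens, with a median of 32876 bp, but longer than all protein-coding genes, with a median of 17403 bp.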

How the data were processed

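Per the labels, JunB or H3K27ac CUT&RUN-seq was run on mouse MuSCs with a commercial kit. Before deposit, the authors mapped quality-filtered reads onto the mm10 build (Bowtie2), discarded duplicates and ran MACS2 on every library. The study names a p-value cutoff for the JunB peaks, but the lists did not share a common threshold. The lists of young replicates 2 and 3 and H3K27ac start at a lowest −log10 q of 2.26, 2.10 and 2.04, and the others at 0.40 and 0.67. Tool versions and the control library were not given in the sources used here. The deposited narrowPeak files hold, per peak, a position, the fold enrichment at the summit (a ratio), −log10 p and −log10 q values, a summit and a score, which was not used. Replicates were not pooled; the labels number the young libraries as biological replicates and do not say which or how many mice each came from.

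A peak was linked to each protein-coding gene of GENCODE M21 with an overlap of at least 1 bp within 3000 bp of a TSS or in the gene body, all 5 lists alike. Peaks on 21 chromosomes numbered 71540, none past a chromosome end of GRCm38. Shares carry exact 95% Clopper-Pearson intervals, and no test between ages was run, since 1 aged library gives no aged spread. The length-standardised background is the mean, over collagens, of the share in each gene's length bin, with 10 bins of equal gene number. JunB peaks sharing at least 1 bp or touching were merged into regions on those chromosomes. Introns were numbered on 1 transcript per gene, and sequences came from the RefSeq GRCm38.p6 genome. The motif TGACTCA or its reverse complement TGAGTCA was searched on both strands. Scripts ran in Python 3.11.15 with numpy 2.4.6, scipy 1.17.1 and pysam 0.24.0, and were tested on simulated data with bedtools 2.31.1.

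The members, gene lists and tests were chosen with earlier results of these data known. Named genes were those with JunB in all 4 libraries, in the aged and no young library or in at least 2 young libraries and not the aged one, those of the 5 strongest collagen peaks per library, and 14 collagens of muscle matrix and niche; Col2a1, Col4a3, Col4a5, Col4a6, Col6a4, Col6a6, Col7a1, Col8a2, Col9a1, Col9a2, Col9a3, Col10a1, Col11a1, Col11a2, Col14a1, Col17a1, Col19a1, Col20a1, Col22a1 and Col28a1 were named beyond it to account for every group, after their values were seen. Alternatives varied the threshold, the TSS window, the counting of peaks, the background, the young libraries and the motif window.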

Additional observations from a re-analysis of the deposited data

How the results depend on the processing

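Of 199 values recomputed under the alternatives, 162 kept their direction and stayed close, 31 moved further and 6 changed sign, where close means within 1.5 times for a count, inside the interval for a share of peaks, and, for a difference of shares, moved by no more than the distance from the collagen share to the bound of its interval; the cause was tested for none of them beyond what each alternative removes by construction. Restricted to the 2000 strongest peaks, the collagens with a peak fell to 8 and 6 in young replicates 1 and 2, to 7 in the aged library and to 1 for H3K27ac, those near a TSS to 2 in young replicate 2, 3 in the aged library and 1 for H3K27ac, those in all 4 JunB libraries to 5, and those in the aged and no young library to 0; the H3K27ac share minus that of all protein-coding genes became −4.67 points, and 75% of the aged collagen peaks overlapped H3K27ac. With the TSS window alone the counts were 6, 5, 5 and 10, with 4 in all 4 libraries, 4 in the aged and no young library and 1 in a young and not the aged library, and the share minus its background was −1.19 points for the aged library and fell from 14.2 to 2.53, from 10.9 to 3.57, from 13.1 to 5.42 and from 12.2 to 2.43 for young replicates 1, 2 and 3 and H3K27ac. The length-standardised background gave −3.16, −0.56, −3.57 and −5.87 points in young replicates 1 and 2, the aged library and H3K27ac. A TSS window of 1 kb left 1, 1 and 1 young and 6 aged genes near a TSS, and the TSS at the 5′ end alone left 2 and 3 in young replicates 2 and 3. Collagens in a young and not the aged library were 1 at a −log10 q of at least 2, 1 at the highest of the lists' lowest −log10 p, and 0 when at least 2 young libraries were required. Leaving out a young library gave 9 to 10 genes in all JunB libraries, 8 to 9 in the aged and no young library and 0 to 2 in a young and not the aged library, the 0 without young replicate 1. Searching the whole peak raised the motif share to 48%, 57.1%, 53.8% and 37.2%. Asking for 1 region shared by all 4 libraries was chosen after seeing the data and left 8 genes. No paired analysis was possible because the aged and H3K27ac groups hold 1 library each.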
